A study of Mus musculus with 9 samples.

Results

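The 10 genes described here, Naaladl1, Cyp26a1, Vgf, Aspa, Ikzf2, F2r, Cd55, Slc24a3, Tpbg and Peg10, were selected because their mean expression was far higher on arrays of T2M (type 2 myeloid) cells than on arrays of eosinophils, neutrophils or macrophages from the same inflamed lungs. They are 10 of 18193 genes measured, and all 17 of their probe sets, among 45037, were taken. Since the genes were selected on the difference between T2M and each other label, those differences are given as descriptions without a test.

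The 9 Affymetrix arrays held RNA of CD11b-enriched lung cells from female 4get mice on a BALB/c background, aged 6 to 8 weeks. The 4get allele adds a green fluorescent reporter to the Il4 gene. All mice, those behind the comparison populations included, had received 0.5 µg of IL-25 in 50 µL through the trachea on each of 4 days, so no group came from an untreated lung. T2M cells (3 arrays) were sorted as reporter-positive, IL-5 receptor alpha-negative, F4/80-positive, MHC class II-low and Gr-1-intermediate. Eosinophils (2 arrays) were reporter-negative, receptor-positive, F4/80-negative, MHC class II-low and Gr-1-high. Neutrophils (2 arrays) were reporter-negative, receptor-negative, F4/80-negative, MHC class II-low and Gr-1-positive. Macrophages (2 arrays) were reporter-negative, receptor-negative, F4/80-positive, MHC class II-positive and Gr-1-negative. Each replicate pooled cells of 4 donor mice, 400000 cells were sorted, and 50 ng of RNA was amplified.

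The genes belong to several pathways. Retinoic acid is made from vitamin A by aldehyde dehydrogenases, acts through nuclear receptors, and is cleared by the CYP26 enzymes, whose own transcription it induces. The thrombin receptor is a G protein-coupled receptor that is switched on when a protease cuts its extracellular end, and CD55 protects cells from complement by speeding the decay of the convertases on their surface. Ikaros-family zinc finger proteins control transcription in lymphocytes and other blood cells. IL-25 is a cytokine of type 2 inflammation, in which IL-4-producing cells and eosinophils gather in the lung.

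The promoter of Cyp26a1 is shown because it holds the direct repeat through which retinoic acid receptors are known to act on this gene. It covers 250 bases before and 50 bases after the start site in the RefSeq table of GRCm38.p6, chr19:37697558-37697857 on the plus strand, and the capitals mark the repeat.
Cyp26a1 promoter: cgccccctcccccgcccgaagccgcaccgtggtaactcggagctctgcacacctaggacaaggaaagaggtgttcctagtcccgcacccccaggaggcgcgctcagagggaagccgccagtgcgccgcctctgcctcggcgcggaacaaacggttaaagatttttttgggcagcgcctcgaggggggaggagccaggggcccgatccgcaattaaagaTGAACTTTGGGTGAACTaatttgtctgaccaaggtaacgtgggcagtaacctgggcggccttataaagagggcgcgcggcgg
The motif searched on both strands was TGAACTNNNNNTGAACT, a repeat of 6 bases with a spacer of 5. Its letters are those of the Cyp26a1 repeat itself, so the match in that promoter was fixed in advance. The motif was present in 8 of 32841 promoters of the same length (0.0244%). Other spellings of the 6 bases were not searched, so this is not the share of retinoic acid response elements in general. Among the genes described here, 6 had a promoter in the table (8 promoters), and the motif was in 1 of these. GATA motifs, which here means GATA after an A or T and before an A or G, on either strand, were in 29.8% of all promoters and in 2 of the 8, both of Tpbg. These matches describe the letters in the windows and no binding was measured.

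Some measures of the arrays bear on every result below. On the T2M arrays, the eosinophil marker list (9 of 12 genes measured) had mean log2 levels of 8.96 to 9.47, against 6.75 and 5.88 on eosinophil replicates 1 and 2, 6.93 and 5.36 on the neutrophil arrays and 4.53 and 4.40 on the macrophage arrays. Of its 9 genes, limma found 6, 5 and 9 higher in T2M than in eosinophils, neutrophils and macrophages. All genes had 1.57%, 1.25% and 6.53% called higher in these contrasts. Il5ra, whose protein the T2M gate excluded, had log2 levels of 8.05, 7.18 and 7.52 on the T2M arrays, against 5.77 and 4.60 on the arrays labelled eosinophils, which is opposite in direction to the gates. Il4 had 7.69, 9.80 and 8.36 on the T2M arrays, and its highest value elsewhere was 6.43, on neutrophil replicate 1. The neutrophil gate took F4/80-negative and MHC class II-low cells, but the mRNA of these markers on the arrays labelled neutrophils lay close to that on the macrophage arrays. The MHC class II gene H2-Ab1 had 10.37, 12.63 and 12.11 on the T2M arrays, 12.66 and 13.17 on the neutrophil arrays, 10.40 and 10.53 on the eosinophil arrays and 13.11 and 13.27 on the macrophage arrays. The class II invariant chain Cd74 had 13.40 and 13.66 in neutrophils, against 13.64 and 13.68 in macrophages. Adgre1, which encodes F4/80, had 9.60 and 9.72 in neutrophils, against 9.86 and 9.65 in macrophages. Neutrophil values below are those of the arrays with that label. Many comparison values below are low for these arrays. Over the arrays other than T2M, the mean levels of Ikzf2 and Peg10 lay at percentiles 12.5 and 15.2 of all probe sets, and that of F2r at 53.2. Whether low values lay above background was not assessed, so the size of folds over them is uncertain.

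The 3′ minus 5′ difference of the Gapdh control probe sets, a measure of RNA integrity and labelling, was 2.35 to 3.43 on the T2M arrays, against 2.41 and 1.09 for eosinophils, 2.20 and 1.45 for neutrophils and 1.02 and 1.20 for macrophages. Markers of other cells also differed, and the values are given by replicate. Stromal markers (8 genes) averaged 7.01, 6.28 and 6.42 on the T2M arrays, against 6.05 and 5.52 for eosinophils, 6.17 and 5.11 for neutrophils and 4.77 and 4.96 for macrophages. Epithelial markers (8 genes) averaged 9.05, 8.63 and 8.09 on the T2M arrays, against 7.95 and 8.01 for eosinophils, 7.73 and 6.98 for neutrophils and 6.41 and 6.66 for macrophages. Endothelial markers (8 genes) averaged 6.55, 7.67 and 7.44 on the T2M arrays, against 6.30 and 6.21 for eosinophils, 7.26 and 6.01 for neutrophils and 5.63 and 5.73 for macrophages. Stromal and epithelial markers were thus higher on every T2M array than on any other array, and endothelial markers overlapped. Of these 24 genes, limma called 1 higher against eosinophils (4.17%, with 1.57% of all genes), 2 against neutrophils (8.33%, with 1.25%) and 12 against macrophages (50.0%, with 6.53%).

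Among blood cells, T cell and innate lymphoid markers (11 genes) averaged 6.84, 6.48 and 6.69 on the T2M arrays and at most 6.35 elsewhere, without overlap, and limma called 0, 0 and 3 of them higher and 1, 0 and 1 lower against eosinophils, neutrophils and macrophages. Mast cell and basophil markers (9 genes) averaged 6.77, 5.77 and 6.21 on the T2M arrays and up to 5.80 elsewhere, with an overlap at T2M replicate 2, and with 0, 1 and 2 called higher and 0, 0 and 1 lower. Over all genes, 1.57%, 1.25% and 6.53% were called higher and 2.89%, 1.57% and 10.6% lower in these contrasts. Of 6 B cell genes, Bank1 was called higher in all 3 contrasts, by 3.43, 3.93 and 2.72 (limma, adjusted p = 0.00467, 0.00560 and 0.00424), and 1 other gene was called lower against macrophages. The part of marker content and RNA quality in the levels of the 10 genes was not tested. Replicates correlated at 0.915 to 0.970 over all probe sets, except for the macrophage arrays at 0.994, whose values do not show whether they were separate pools or the same RNA. In sorted bulk RNA, fewer cells of a type and less RNA per cell cannot be told apart.

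Retinoic acid and N-acetylaspartate enzymes come first. Cyp26a1, the enzyme that oxidises retinoic acid for clearance, had log2 levels of 7.20, 9.27 and 8.92 on the T2M arrays. The values were 5.38 and 4.38 in eosinophils, 5.81 and 3.52 in neutrophils and 3.91 and 3.65 in macrophages. The lowest T2M array thus lay above the highest other array, but T2M replicate 1 was well below the other T2M arrays, and the neutrophil replicates were far apart. The T2M mean was 11.9-fold that of eosinophils, the nearest label, and 13.9-fold and 25.6-fold the means of neutrophils and macrophages.

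Naaladl1 encodes a relative of the peptidase that cuts N-acetylaspartylglutamate. It had log2 levels of 7.39, 9.73 and 8.77 in T2M, against 5.04 and 4.57 in eosinophils, 4.32 and 3.86 in neutrophils and 3.63 and 4.10 in macrophages. T2M replicate 1 was again the lowest of the T2M arrays, and no other array overlapped with them. Aspa, the aspartoacylase that splits N-acetylaspartate into acetate and aspartate, had 8.74, 8.29 and 8.38 in T2M. Its levels were 5.36 and 4.95 in eosinophils, 5.70 and 4.21 in neutrophils and 3.80 and 4.07 in macrophages. The T2M arrays of Aspa were close together and apart from all others. The T2M means were 14.1-fold (Naaladl1) and 9.97-fold (Aspa) the eosinophil means.

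**Figure D1:**
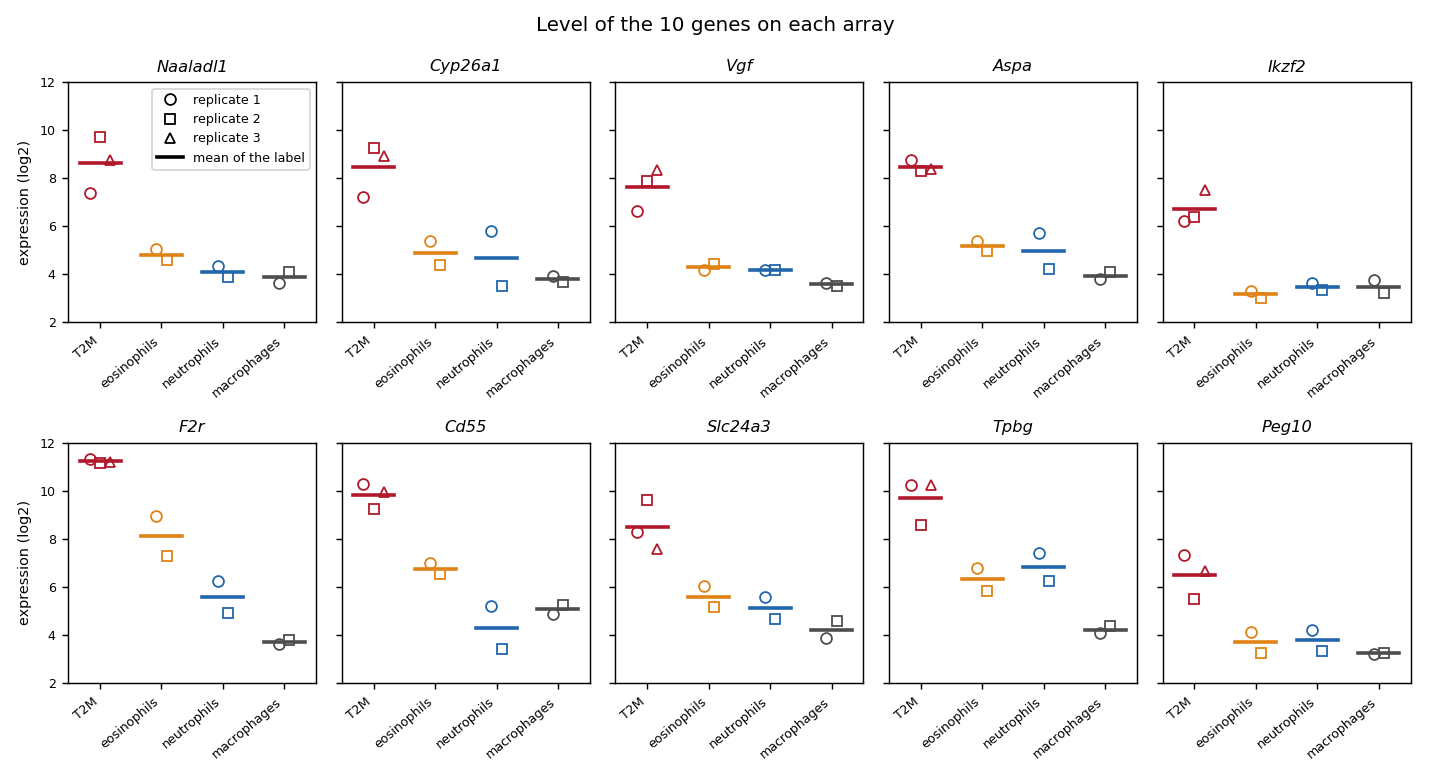
Log2 expression (vertical axis) of each of the 10 genes on each array, by label (horizontal axis), with 1 point per array, a symbol per replicate and a bar for the label mean. For all 10 genes the 3 T2M points lie above the 6 others, with F2r the tightest in T2M (SD 0.10) and Naaladl1 the widest (SD 1.18).

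Among the receptors and surface proteins, F2r, the thrombin receptor PAR1, had log2 levels of 11.36, 11.15 and 11.23 in T2M. Eosinophils had 8.95 and 7.29, neutrophils 6.26 and 4.90, and macrophages 3.60 and 3.77. The labels did not overlap, and the T2M arrays of F2r spread least of the 10 genes. The T2M mean was 8.75-fold the eosinophil mean, 50.8-fold the neutrophil mean and 189-fold the macrophage mean. The macrophage values are low, so the size of the last fold is uncertain. On the log2 scale the difference from eosinophils was 3.13, and it was 3.96 without eosinophil replicate 1 and 2.30 without eosinophil replicate 2. A second probe set, 1450852_s_at, had 10.02, 9.14 and 9.29 in T2M and at most 6.73 elsewhere, with the label means in the same order.

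Cd55, which encodes decay-accelerating factor, had 10.31, 9.26 and 9.96 in T2M, against 6.98 and 6.55 in eosinophils, 5.21 and 3.39 in neutrophils and 4.88 and 5.24 in macrophages. T2M stood apart from all other arrays, and eosinophils from the remaining 4. Its 2 other probe sets also had all T2M arrays above all others, at 8.23 to 9.46 against at most 7.17 for 1418762_at and 6.35 to 6.56 against at most 4.18 for 1443906_at. The T2M mean was 8.42-fold that of eosinophils. Cd55b, the neighbouring paralog, had log2 values of 2.90 to 3.22 in T2M and 2.76 to 3.11 elsewhere, and did not pass the test in any T2M contrast.

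Tpbg, the trophoblast glycoprotein 5T4, which is known to modulate Wnt and CXCR4 signalling, had 10.26, 8.57 and 10.24 in T2M. The values were 6.79 and 5.84 in eosinophils, 7.42 and 6.26 in neutrophils and 4.06 and 4.37 in macrophages, so neutrophils were nearest and T2M replicate 2 stood below the other T2M arrays. The 3 probe sets disagreed. Probe set 1423310_at had 9.21, 5.49 and 6.76 in T2M and up to 6.22, on eosinophil replicate 1, so the labels overlapped. Probe set 1423312_at ranged from 2.64 to 3.08 in T2M and from 2.54 to 3.08 elsewhere. When the probe sets of Tpbg were averaged, the T2M excess over the nearest label was 1.75 instead of 2.86 on the log2 scale.

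Slc24a3, a plasma membrane exchanger that removes calcium in return for sodium with potassium, had 8.27, 9.63 and 7.60 in T2M. Eosinophils had 6.04 and 5.15, neutrophils 5.56 and 4.64, and macrophages 3.85 and 4.57. No array overlapped with T2M, but T2M replicate 2 lay further from replicate 3 than replicate 3 lay from the highest eosinophil array. The T2M mean was 7.49-fold that of eosinophils.

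Vgf, a secreted neuropeptide precursor of the granin kind, had 6.61, 7.90 and 8.35 in T2M. It had 4.17 and 4.41 in eosinophils, 4.18 and 4.17 in neutrophils and 3.64 and 3.51 in macrophages. The comparison arrays were all close together, and the T2M mean exceeded the eosinophil mean, the nearest, by 3.33 on the log2 scale.

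Ikzf2, which encodes the Ikaros-family factor Helios, known from regulatory T cells, had 6.23, 6.39 and 7.51 in T2M. The values were 3.29 and 3.02 in eosinophils, 3.61 and 3.32 in neutrophils and 3.76 and 3.21 in macrophages. Macrophages were the nearest label of Ikzf2 by a small margin, with a mean of 3.48 against 3.47 in neutrophils. Its other probe sets also separated T2M from the rest, with 5.33 to 5.58 against at most 4.29 for 1421643_at and 3.94 to 4.46 against at most 3.38 for 1456956_at. Averaging the 3 probe sets of Ikzf2 lowered its excess over the nearest label to 1.90, against 3.23 on the log2 scale.

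Peg10, a retrotransposon-derived gene expressed from the paternal allele, had 7.31, 5.51 and 6.66 in T2M. Its levels were 4.10 and 3.25 in eosinophils, 4.20 and 3.33 in neutrophils and 3.21 and 3.23 in macrophages. T2M replicate 2 was the lowest T2M array but still above every other array. The T2M mean was 6.63-fold that of neutrophils, the nearest label.

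**Figure D2:**
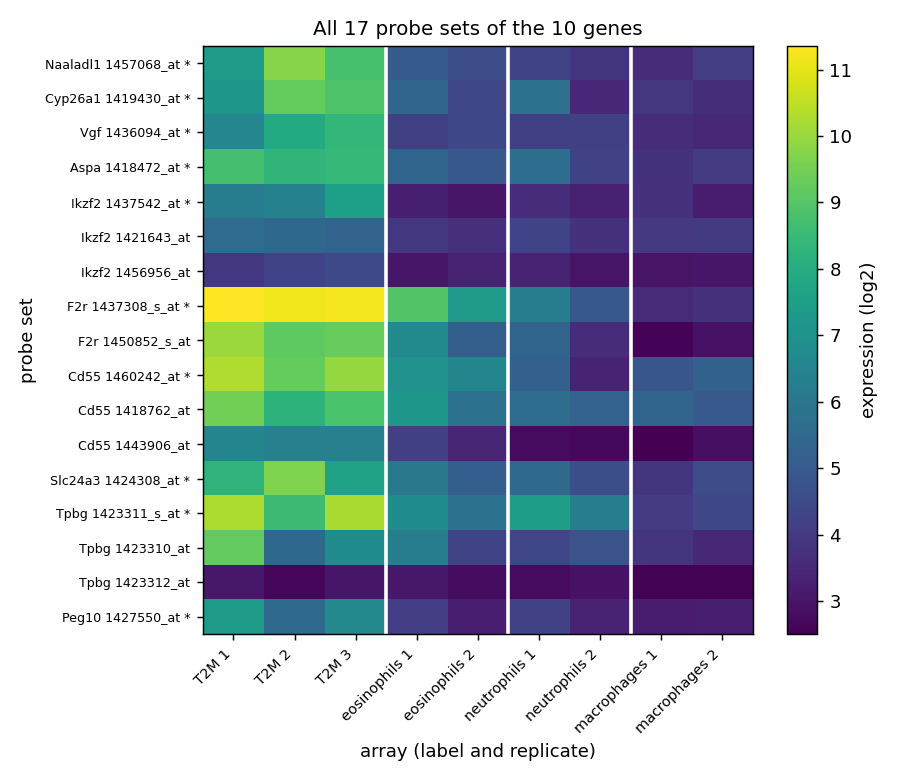
Log2 expression (colour) of all 17 probe sets of the 10 genes (rows, an asterisk marks the probe set used for the gene) on the 9 arrays (columns, T2M first). In 15 of the 17 rows every T2M array exceeds every other array, and the exceptions are Tpbg 1423310_at and 1423312_at.

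For 10 of 10 genes, by the probe set with the highest mean, all T2M arrays lay above all other arrays, a pattern found in 3.39% of all genes, and the selection used the same values. The gap between the lowest T2M array and the highest other array was 1.15 to 2.60 on the log2 scale. Eosinophils were the nearest label for 7 genes, neutrophils for 2 and macrophages for 1. The last 2 counts rest partly on small differences and on the probe set used. For Ikzf2 the macrophage and neutrophil means were 3.48 and 3.47, and neutrophils were nearest on its other probe sets. For Peg10 the neutrophil and eosinophil means were 3.76 and 3.68. On the other probe sets of Tpbg, eosinophils were nearest. Ranked by excess over the nearest label, the genes took places 3, 5 to 10 and 15 to 17 of 18193. Just inside the last place was Peg10 (2.73), and just outside it Bank1, a B cell adaptor gene (2.72). The other genes of the first 20 were Ccr3 (4.53), Prg2 (3.89), Gata1 (3.75), Il4 (3.07), Fkbp9 (3.04), Syne1 (2.97), P2ry14 (2.96), Rmdn2 (2.58) and Fer (2.54). Ccr3, Prg2, Gata1 and P2ry14 are in the eosinophil marker list, and Il4 is the gene the sort selected on.

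The 10 genes varied more among the T2M arrays than genes in general. Their SD over the T2M arrays had a median of 0.91, against 0.29 over all genes, and this is a description because high T2M values chose them. The genes did not vary together. Naaladl1, Cyp26a1, Vgf and Ikzf2 were lowest on T2M replicate 1, while Aspa, F2r, Cd55, Tpbg and Peg10 were highest on it and lowest on replicate 2. Slc24a3 was highest on replicate 2 and lowest on replicate 3. Gata1, which encodes a transcription factor of the eosinophil lineage and of other blood lineages, had 6.86, 8.39 and 8.12 and so was also lowest on replicate 1, as was Il4. T2M replicate 1 also differed in its actin controls, with a 3′ minus 5′ difference of 0.61 against -0.04 and -0.02 on the other T2M arrays. It was also the highest T2M array for mast cell and basophil markers, with a mean of 6.77 against 5.77 and 6.21, and for stromal markers, with 7.01 against 6.28 and 6.42. Among single markers, it had 7.97 for Cpa3, a mast cell protease, against 3.75 and 6.47, and 9.67 for the collagen gene Col3a1, against 7.34 and 7.59. Scgb1a1, of airway club cells, had 11.62 on it, against 7.48 and 8.12. Other markers of the same lists were lowest on it. The mast cell protease genes Cma1 and Tpsb2 had 5.62, against 6.06 and 7.11, and 5.60, against 5.83 and 5.78. Sftpc, of the epithelial list, had 9.86, against 12.09 and 11.04. Endothelial markers averaged 6.55 on it, against 7.67 and 7.44. The part of these measures in the spread was not tested.

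**Figure D3:**
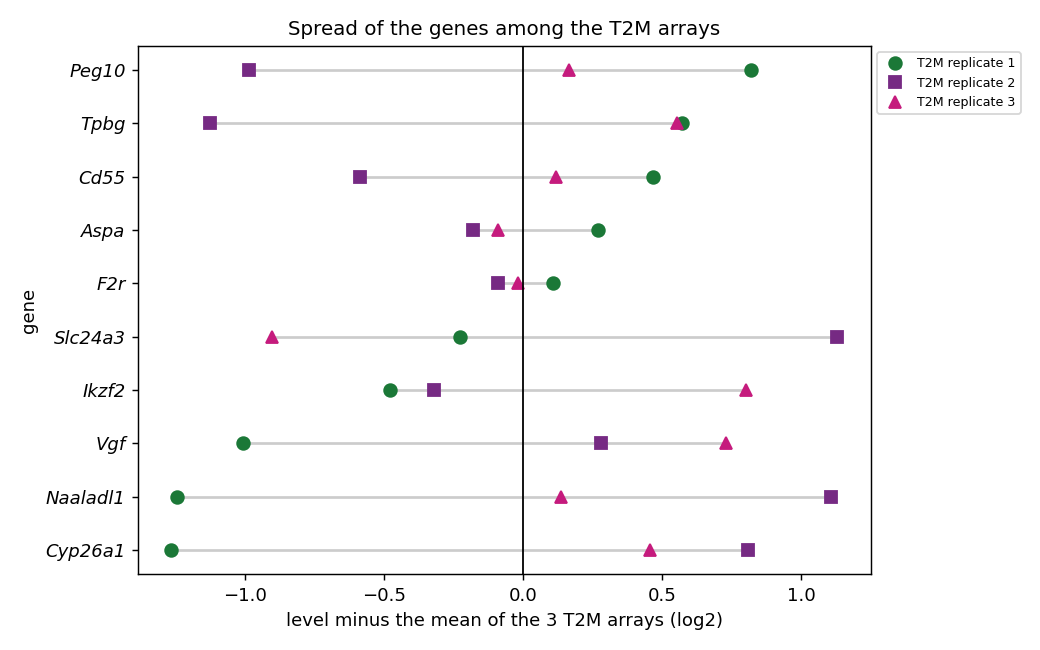
Level on each T2M array minus the mean of the 3 T2M arrays (horizontal axis, log2) for each gene (vertical axis), with 1 symbol per replicate. Replicate 1 is the lowest for Cyp26a1, Naaladl1, Vgf and Ikzf2 and the highest for Peg10, Tpbg, Cd55, Aspa and F2r.

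The comparisons among eosinophils, neutrophils and macrophages were not used to select the genes and were tested. F2r was higher in eosinophils than in macrophages by 4.43 (SE 0.57), or 21.6-fold (limma, adjusted p = 0.00187). It was also higher in eosinophils than in neutrophils by 2.54 (SE 0.57), or 5.80-fold (limma, adjusted p = 0.0327). On the second F2r probe set, 1450852_s_at, the eosinophil and neutrophil means were closer, at 5.95 and 4.48. The arrays overlapped there, with 6.73 and 5.17 in eosinophils and 5.35 and 3.61 in neutrophils. Cd55 was higher in eosinophils than in neutrophils by 2.47 (SE 0.58), or 5.53-fold (limma, adjusted p = 0.0380). On the other Cd55 probe sets these label means lay closer together, at 6.50 and 5.47 for 1418762_at and 3.82 and 2.74 for 1443906_at. The calls were made on the brightest probe set of each gene. For F2r the order of means was thus T2M, eosinophils, neutrophils, macrophages, and neutrophils and macrophages at its lower end differed by 1.90 (SE 0.57, limma, adjusted p = 0.150), which did not pass.

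Between eosinophils and neutrophils, 2 of 10 genes were higher and 0 lower, while 3.55% of all genes were called higher and 4.33% lower. Between eosinophils and macrophages, 1 was higher and 0 lower, with 5.89% of all genes called higher and 11.5% lower. Tpbg (2.10, limma adjusted p = 0.0586) and Cd55 (1.71, adjusted p = 0.0788) did not pass there. Between neutrophils and macrophages limma called 0 of the 10, with 1.13% of all genes called higher and 1.13% lower, and 2 had an unadjusted p under 0.05. Tpbg had the smallest adjusted p there (2.62, SE 0.64, limma adjusted p = 0.0901). The median difference of the 10 genes was 0.21, 1.16 and 0.74 in these contrasts, against -0.07, 0.18 and 0.17 over all genes, and macrophages had the lowest mean for 8 of the 10.

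The difference of F2r between eosinophils and macrophages passed in all 21 alternatives tried. The call of F2r between eosinophils and neutrophils was lost in 10 of 21, with a difference of 1.71 without eosinophil replicate 1 (limma, adjusted p = 0.125) and 1.86 without neutrophil replicate 2 (adjusted p = 0.112). That of Cd55 was lost in 9 of 21, with 1.55 without neutrophil replicate 2 (limma, adjusted p = 0.0873). Where an array is left out, 1 remains of that label, which is assumed to vary like the arrays of the other labels.

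Most of the 10 genes were higher on replicate 1 than on replicate 2 of eosinophils and neutrophils, but not of macrophages. Over all genes, the replicate 1 minus replicate 2 differences of eosinophils and neutrophils correlated at -0.12. On eosinophil replicate 1, 9 of the 10 genes were higher than on replicate 2, by a median of 0.66, while all genes had a median difference of 0.00 and 50.0% were higher. On neutrophil replicate 1, 10 of 10 were higher than on replicate 2, by a median of 1.04, against 0.09 over all genes, of which 54.6% were higher. On the macrophage arrays, 3 of 10 were higher on replicate 1. The eosinophil marker list differed between the same replicates, at 6.75 and 5.88 on the eosinophil arrays and 6.93 and 5.36 on the neutrophil arrays. The Gapdh 3′ minus 5′ difference was 2.41 and 1.09 on the eosinophil arrays and 2.20 and 1.45 on the neutrophil arrays, higher on replicate 1 of both. The actin difference was 0.54 and -0.03 on the eosinophil arrays, but -0.10 and 0.03 on the neutrophil arrays. Other markers were also higher on neutrophil replicate 1 than on replicate 2, with endothelial means of 7.26 and 6.01, stromal means of 6.17 and 5.11, epithelial means of 7.73 and 6.98 and mast cell and basophil means of 5.68 and 4.81. On the eosinophil arrays stromal means were 6.05 and 5.52, while epithelial means were 7.95 and 8.01 and endothelial means 6.30 and 6.21. The part of these measures in the difference was not tested.

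**Figure D4:**
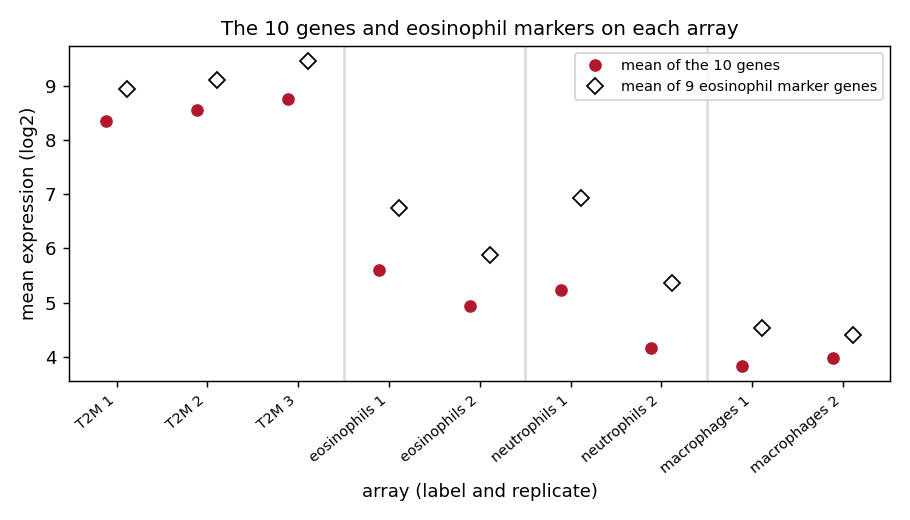
Mean log2 expression (vertical axis) of the 10 genes (filled circles) and of 9 eosinophil marker genes (open diamonds) on each of the 9 arrays (horizontal axis). Both are highest on the T2M arrays (8.37 to 8.76 for the 10 genes) and higher on replicate 1 than on replicate 2 of eosinophils and neutrophils.

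The other genes of these pathways were drawn from 9 lists, of which 160 of 173 genes were measured. Against eosinophils, limma called 3 of the 160 higher in T2M (1.88%) and 2 lower (1.25%), where all genes had 1.57% and 2.89%. Against neutrophils the counts were 3 (1.88%) and 4 (2.50%), where all genes had 1.25% and 1.57%. Against macrophages they were 27 (16.9%) and 12 (7.50%), where all genes had 6.53% and 10.6%. The median difference of the 160 genes was 0.17, 0.07 and 0.44 in these contrasts, beside 0.06, -0.03 and 0.18 over all genes. Most of the 51 calls in these contrasts were lost when either macrophage array was left out, which leaves 1 array of that label. The fit shares its estimate of the spread among all labels. Most calls below, against eosinophils and neutrophils as well as macrophages, thus rest on both of those closely similar arrays. Of the genes named from the lists below, only Tgm2, Nat8l and F2rl2, each against macrophages, passed in every alternative tried.

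In the retinoic acid list (19 genes measured), 0 genes were called against eosinophils or neutrophils, and against macrophages 4 were higher and 2 lower. The retinaldehyde dehydrogenases Aldh1a1 and Aldh1a2, which make retinoic acid, were higher in T2M than in macrophages by 2.73 and 2.30 (limma, adjusted p = 0.0297 and 0.0300). Aldh1a2 was higher still on the neutrophil arrays, at 8.81 and 9.85 against 7.57 to 8.42 in T2M. For Aldh1a1, eosinophil replicate 1 (6.21) lay within the T2M range of 6.07 to 7.68. Tgm2, a transglutaminase that retinoic acid is known to induce, had log2 levels of 13.82, 13.53 and 13.60 in T2M and 11.38 and 11.15 in macrophages, but 13.82 and 13.56 in eosinophils. It was higher in T2M than in macrophages by 2.39 (limma, adjusted p = 6.72e-04) and differed from eosinophils by -0.04. The receptor gene Rxrb was lower than in macrophages by 1.80, with a difference of -1.80 (limma, adjusted p = 0.00373). Cyp26b1, a related clearance enzyme, had 6.52 to 7.58 in T2M and 6.11 to 7.14 elsewhere.

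In the N-acetylaspartate list (12 genes measured), 0 genes were called against eosinophils or neutrophils. Nat8l, the enzyme that makes N-acetylaspartate, the substrate of Aspa, had log2 levels of 6.44, 6.38 and 6.13 in T2M, against 6.33 and 6.83 in eosinophils, 6.94 and 7.62 in neutrophils and 8.35 and 8.53 in macrophages. The difference from macrophages was -2.12 (limma, adjusted p = 0.00281), the only call of that list. Acss1, a mitochondrial acetyl-CoA synthetase, differed from eosinophils by 3.00 without passing (limma, adjusted p = 0.0746). Folh1, the relative of Naaladl1 that cuts N-acetylaspartylglutamate, stayed between 2.51 and 2.80 on every array.

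Among 13 measured genes of granins and dense-core vesicles, 3 were higher in T2M than in macrophages and 0 were called otherwise. Cpe, carboxypeptidase E, which trims peptide precursors, had 7.65, 7.43 and 7.85 in T2M, 7.66 and 4.18 in eosinophils, 6.07 and 3.98 in neutrophils and 3.26 on both macrophage arrays. It was higher than in macrophages by 4.38 (limma, adjusted p = 0.0179), and its eosinophil replicate 1 lay among the T2M values. Pam, which amidates peptides, and Chgb, chromogranin B, were higher by 1.69 and 0.86 (limma, adjusted p = 0.00858 and 0.0358).

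In the list of Ikaros-family and NuRD complex genes (17 measured), 1 gene was higher and 0 lower against eosinophils, 0 and 1 against neutrophils, and 1 and 5 against macrophages. Ikzf3 (Aiolos) had log2 levels of 9.93, 9.0 and 9.84 in T2M, against 7.17 and 5.29 in eosinophils, 8.53 and 6.16 in neutrophils and 7.85 and 7.82 in macrophages. It was higher in T2M than in eosinophils by 3.36 (SE 0.74, limma, adjusted p = 0.0439). Ikzf4 (Eos) had 8.59, 8.42 and 9.24 in T2M, against 6.42 and 4.76 in eosinophils, 7.73 and 4.71 in neutrophils and 4.61 and 4.34 in macrophages. It was higher than in macrophages by 4.27 (SE 0.82, limma, adjusted p = 0.0123), while the differences of 3.15 from eosinophils and 2.53 from neutrophils did not pass. For both genes every T2M array lay above every other array. Ikzf1 (Ikaros) did not separate T2M in that way, with 8.69 to 9.64 in T2M and 9.37 to 10.26 elsewhere. Mta2 and Mta3, subunits of the NuRD repressor, were lower in T2M than in macrophages, with differences of -3.06 and -2.90 (limma, adjusted p = 0.00504 and 0.0176).

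Among thrombin and protease-activated receptor genes (18 measured), 1 was higher and 1 lower against eosinophils, 1 and 0 against neutrophils, and 5 and 0 against macrophages. F2rl2, which encodes PAR3, a cofactor of thrombin receptor activation in mouse platelets, had log2 levels of 9.60, 9.26 and 9.40 in T2M and 9.35 and 9.34 in eosinophils. Neutrophils had 5.21 and 6.01, and macrophages 4.86 and 5.54. F2rl2 was thus higher in T2M than in neutrophils by 3.81 and than in macrophages by 4.22 (limma, adjusted p = 0.00420 and 2.35e-04), and its difference from eosinophils was 0.08 (SE 0.31). F2rl3 (PAR4) lay between 4.03 and 4.79 on all arrays. Procr, the endothelial protein C receptor, was higher in T2M than in eosinophils by 1.26, and Arrb2, an arrestin that desensitises receptors, was lower with a difference of -1.64 (limma, adjusted p = 0.0273 and 0.0471). F3, tissue factor, was higher in T2M than in macrophages by 1.96 (limma, adjusted p = 0.0303). Its eosinophil levels of 7.30 and 6.80 lay above its T2M levels of 6.08, 5.24 and 4.21. The difference of T2M from eosinophils, -1.87, did not pass (limma, adjusted p = 0.0755).

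In the list of complement regulators (11 measured), Adgre5, which encodes CD97, the adhesion receptor that binds CD55, was lower in T2M than in each other label. Its log2 levels were 9.85, 10.72 and 10.23 in T2M, against 11.70 and 11.99 in eosinophils, 11.70 and 11.54 in neutrophils and 12.08 and 12.04 in macrophages, without overlap. The differences were -1.58, -1.35 and -1.79 (limma, adjusted p = 0.0209, 0.0466 and 0.00559). The call was lost in 9 of 21 alternatives against eosinophils, in 16 of 21 against neutrophils and in 3 of 21 against macrophages, where the adjusted p reached 0.148, 0.207 and 0.0744, with the sign kept. Clu, clusterin, a fluid-phase complement inhibitor, was higher in T2M than in neutrophils and macrophages by 2.92 and 3.35 (limma, adjusted p = 0.0445 and 0.00910). In all, 0, 1 and 3 genes of the list were higher and 1, 1 and 1 lower against eosinophils, neutrophils and macrophages.

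**Figure D5:**
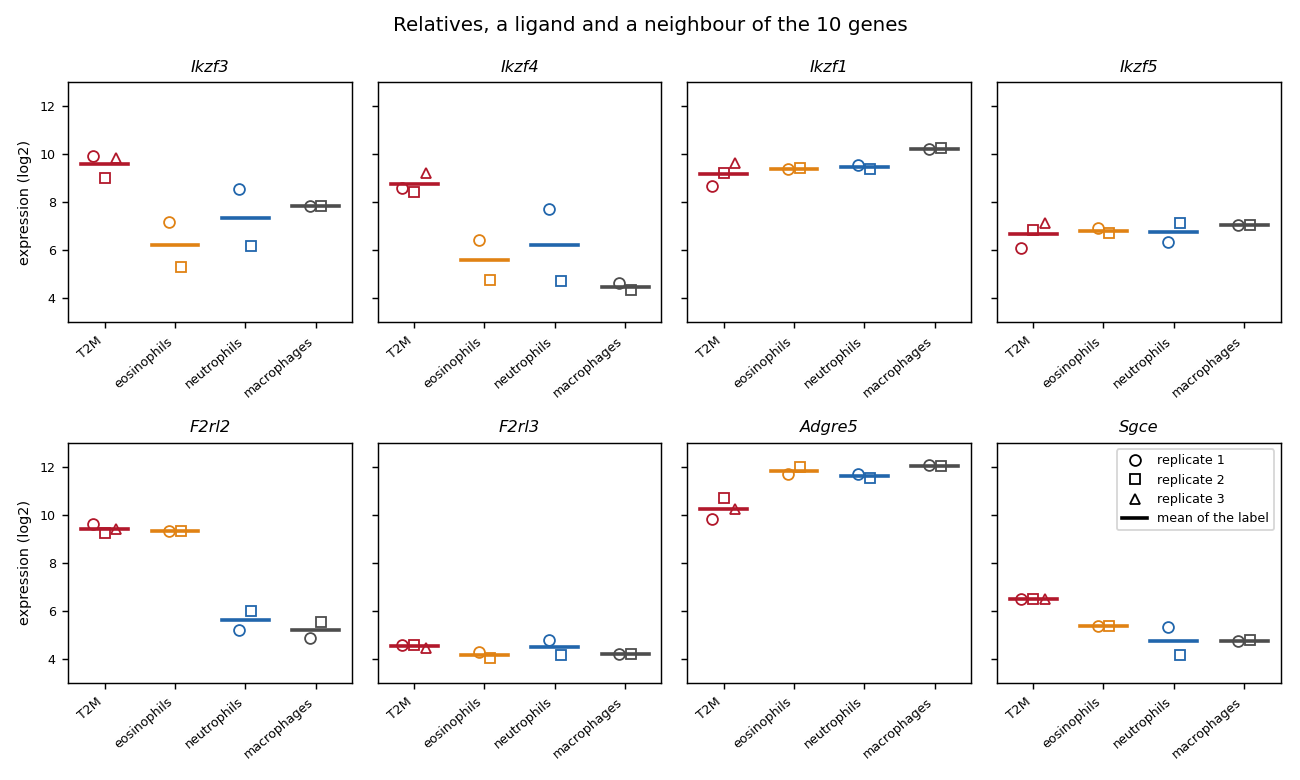
Log2 expression (vertical axis) on each array by label (horizontal axis) of Ikaros-family relatives of Ikzf2, PAR relatives of F2r, the CD55 ligand gene Adgre5 and the Peg10 neighbour Sgce, with 1 symbol per replicate and bars for label means. F2rl2 is as high in eosinophils (9.35 and 9.34) as in T2M (9.26 to 9.60), and Adgre5 is lowest in T2M.

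Of the calcium extrusion genes (15 measured), 4 passed as higher and 2 as lower against macrophages, and 0 were called in the other contrasts. Slc24a1, an exchanger of the same family as Slc24a3, had 8.21, 9.69 and 9.44 in T2M, 8.62 and 9.17 in eosinophils, 8.25 and 6.22 in neutrophils and 4.86 and 5.19 in macrophages. It was higher than in macrophages by 4.09 (limma, adjusted p = 0.00512), with eosinophils overlapping T2M. The sodium-calcium exchanger Slc8a1 and the mitochondrial exchanger Slc8b1 were lower than in macrophages, with differences of -2.63 and -1.56 (limma, adjusted p = 0.0438 and 0.0309).

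Among Wnt signalling genes and partners of Tpbg (26 measured), 0 were called against eosinophils, 1 was called lower against neutrophils, and 2 higher and 1 lower against macrophages. Axin2, a feedback inhibitor that Wnt signals are known to induce, was higher in T2M than in macrophages by 2.91 (limma, adjusted p = 0.0111), and its difference of 2.20 from eosinophils did not pass (adjusted p = 0.0627). Cxcr4, the chemokine receptor that Tpbg is known to affect, was higher than in macrophages by 1.05 (limma, adjusted p = 0.0294). Tcf7l2, a Wnt pathway transcription factor, was lower than in neutrophils with a difference of -1.73 (limma, adjusted p = 0.0290).

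Among the other imprinted genes (29 measured), 1 was higher against eosinophils, 1 higher and 1 lower against neutrophils, and 5 higher against macrophages. Sgce, which encodes epsilon-sarcoglycan and lies next to Peg10, had log2 levels of 6.51, 6.49 and 6.51 in T2M, against 5.36 and 5.37 in eosinophils, 5.32 and 4.17 in neutrophils and 4.72 and 4.80 in macrophages. It was higher than in neutrophils by 1.76 and than in macrophages by 1.74 (limma, adjusted p = 0.0317 and 0.0105), and the difference of 1.13 from eosinophils did not pass (adjusted p = 0.0961). Ndn, necdin, was higher than in macrophages by 2.25 (limma, adjusted p = 0.0126), and Mest was higher than in eosinophils by 1.68 (limma, adjusted p = 0.0350).

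The nearest measured gene on each side of each of the 10 genes, 20 in all, was also examined. The RefSeq table was used for gene order only. Limma called 0 of the 20 against eosinophils, 1 higher and 1 lower against neutrophils, and 2 higher and 1 lower against macrophages. Over all genes, 1.57% were called higher and 2.89% lower against eosinophils. The shares were 1.25% and 1.57% against neutrophils and 6.53% and 10.6% against macrophages. Beside Sgce, Iqgap2, next to F2r, was higher in T2M than in macrophages by 1.67 (limma, adjusted p = 0.0229). Plod3, near Vgf, a lysyl hydroxylase of collagen, was lower than in neutrophils and macrophages, with differences of -1.77 and -2.12 (limma, adjusted p = 0.0184 and 0.00237). The median difference of the 20 neighbours was 0.26, 0.09 and 0.27 in the 3 contrasts, against 0.06, -0.03 and 0.18 over all genes. The neighbours of Naaladl1, Cyp26a1, Aspa, Ikzf2, Cd55, Slc24a3 and Tpbg did not pass in any of them.

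Among genes outside the 10, with predicted genes left out, those most alike in profile were found. The measure was the root mean square log2 difference over the 9 arrays, after each gene was centred on its own mean. Gata1 was the nearest other gene to Naaladl1 (0.32), Vgf (0.39) and Cyp26a1 (0.49), which are 3 of the 4 genes that were lowest on T2M replicate 1, and Syne1 was second for Naaladl1 (0.68) and Cyp26a1 (0.51). Aspa was nearest to Enah (0.42) and then Il5ra (0.52), and Tpbg to Rhoj (0.70) and Il5ra (0.76). Ikzf2 was nearest to Tesc (0.46) and Cmc2 (0.47), and Cmc2 was second for Vgf (0.57). Peg10 was nearest to Arhgap29 (0.44) and Tesc (0.48), and Slc24a3 to Clu (0.54) and Il4 (0.62). Cd55 (Acpp 0.84, Cavin2 0.85) and F2r (Siglecf 1.08, Dach1 1.09) had no close match. Siglecf, an eosinophil surface lectin, averaged 10.6 in T2M and 9.74 in eosinophils. Within the 10, Aspa was closer to Tpbg (0.68) than Rhoj was. Cyp26a1 was closer to Naaladl1 (0.58) than Syne1, Ikzf2 closer to Vgf (0.49) than Cmc2, and Aspa closer to Slc24a3 (0.60) than Il4. All of these genes share the 9 arrays, so their likeness is a description.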

How the data were processed

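The deposited table holds log2 expression values per probe set on 9 arrays. The authors used affy, RMA and limma, per the submitters' processing notes, and versions, settings and genome build are not given in the sources used here. Array medians were 5.48 to 5.68. Of 45101 probe sets, 64 controls were left out. Platform annotation named the genes, and each of 18193 genes was represented by its brightest probe set on average. Labels were compared by fitting label means to all 9 arrays in limma 3.58.1 with R 4.3.3 (lmFit, contrasts, eBayes, two-sided, 5 residual degrees of freedom). Called genes had p under 0.05 after Benjamini-Hochberg adjustment across the whole table, and differences are on the log2 scale with limma's SE. The number of arrays limits the precision (median SE 0.308 for T2M contrasts and 0.337 for the others).

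The 10 genes and all lists were chosen with earlier results of these data known. Named genes were, per pathway list, up to 4 called and 2 uncalled genes with the largest differences (the text prints part of them). Also named were called neighbours, the first 20 by T2M excess and, per gene, the 2 outside the 10 most alike in profile. Cyp26b1, Folh1, Ikzf1, F2rl3, Cd55b, Cpa3, Col3a1, Scgb1a1, Cma1, Tpsb2, Sftpc, H2-Ab1, Cd74 and Adgre1 were named after their values were seen. Alternatives covered probe set choice, dim genes, scaling, array weights, moderation, samples fitted, a replicate block, the macrophage arrays as 1 sample and leaving out each array. The fit was tested on simulated data. Figures used matplotlib 3.10.9 in Python 3.11.15.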

Additional observations from a re-analysis of the deposited data

How the results depend on the processing

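The median T2M excess of the 10 genes over the nearest label was 3.18 and ranged from 2.97 to 3.40 over 14 alternatives, and no called difference changed sign. The 3 calls of the 10 genes among eosinophils, neutrophils and macrophages became 1 with the macrophage arrays counted as 1 sample, and ranged from 1 to 6 when single arrays were left out. The 51 calls among pathway genes became 118 with array weights, 27 with a replicate block and 5 with the macrophage arrays as 1 sample, and ranged from 4 to 79 when single arrays were left out (30 without T2M replicate 2, 24 without T2M replicate 3, 79 and 77 without neutrophil replicate 1 or 2). The 5 calls among neighbours became 3 among genes above the median level, 14 with array weights, 2 with a replicate block and 1 with the macrophage arrays as 1 sample, and ranged from 1 to 9 when single arrays were left out. Leaving out replicate 1 of both eosinophils and neutrophils, an alternative chosen after seeing the data, gave 79 pathway and 12 neighbour calls. The correlation of replicate 1 minus replicate 2 over all genes was 0.51 for T2M and eosinophils and -0.18 to 0.03 for the other pairs of labels. Replicates 1 and 2 thus differed in a shared way in T2M and eosinophils, which the main fit did not include. The actin 3′ minus 5′ difference was 0.61 on T2M replicate 1 and 0.54 on eosinophil replicate 1, against -0.10 to 0.03 on the other arrays. Whether these arrays shared a batch was not tested. Of 186 named differences, 44 were called, and 39 of these lost the call in at least 1 alternative, while 48 of the 142 others gained it in at least 1. With array medians set equal, the median of all genes moved by -0.10 against eosinophils and -0.14 against macrophages. Except where fewer arrays entered the fit, the cause was not tested. With 2 or 3 arrays per label, a difference that did not pass is not shown to be absent.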
